A study of Mus musculus with 2 samples.

Results

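SCA1, the surface antigen by which mouse hematopoietic stem and progenitor cells are sorted, is encoded by Ly6a, a gene of the Ly6 family. RNA of 5 Ly6 genes (Ly6a, Ly6e, Ly6c1, Ly6c2 and Ly6d) of the 32285 genes counted was followed across the cell types of SCA1-sorted fetal liver cells, and between IκBα WT and IκBα KO. The genes were listed by name and not by a cut on their values, though earlier results of these data were known. The cells were E14.5 fetal liver cells of CD1 mice, an outbred stock, depleted of lineage-positive cells and then sorted as LSK (lineage-negative, SCA1+, cKIT+). Their RNA was counted per cell by droplet-based 3′ single-cell RNA sequencing. The WT library came from 2 pooled embryos and the IκBα KO library from 3 pooled embryos of the targeted knockout line Nfkbia tm1Bal, a germline allele that all cells of an embryo carry. The parental matings were of Gfi1:tomato and/or IκBα HET mice, and whether these embryos carried Gfi1:tomato is not given in the sources used here. LT-HSC stands in the sample titles, but the cell type entries and the sorting protocol give LSK.

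Ly6 proteins are small, cysteine-rich proteins that are held on the outer cell membrane by a lipid (GPI) anchor, and many of their genes lie side by side on mouse chromosome 15. Ly6a is known to be induced by interferon, and the share of blood progenitors that carry SCA1 differs between inbred mouse strains. Ly6e is an interferon-induced, broadly expressed member, the Ly6C proteins of Ly6c1 and Ly6c2 mark monocytes, neutrophils and some endothelial cells and form part of the GR1 antigen, and Ly6d marks lymphoid progenitors that turn to the B cell or plasmacytoid dendritic cell fate.

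The genes lie within a stretch of chromosome 15 (GRCm38, GENCODE vM21). In order along the chromosome they are Ly6d (ENSMUSG00000034634, chr15:74762056-74763620, minus strand), Ly6e (ENSMUSG00000022587, chr15:74955051-74959905, plus strand), Ly6a (ENSMUSG00000075602, chr15:74994877-74998031, minus strand), Ly6c1 (ENSMUSG00000079018, chr15:75044018-75048830, minus strand) and Ly6c2 (ENSMUSG00000022584, chr15:75108158-75111970, minus strand). The first coding bases of Ly6a, Ly6e and Ly6d are shown because they carry the SCA1 gene beside its distant relatives, with the start codon in capitals and 60 coding bases each (GENCODE vM21):
Ly6a: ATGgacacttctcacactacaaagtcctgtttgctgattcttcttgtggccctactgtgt
Ly6e: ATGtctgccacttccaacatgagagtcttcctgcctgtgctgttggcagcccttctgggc
Ly6d: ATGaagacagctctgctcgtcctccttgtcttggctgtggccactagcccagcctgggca
Ly6c1 and Ly6c2 are shown together because their reads can be confused. Their coding sequences of 393 bases differed at 9 positions (97.7% identity), and the 90 bases below hold 6 of these differences, in capitals:
Ly6c1: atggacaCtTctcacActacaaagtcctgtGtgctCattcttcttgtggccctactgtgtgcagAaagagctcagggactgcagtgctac
Ly6c2: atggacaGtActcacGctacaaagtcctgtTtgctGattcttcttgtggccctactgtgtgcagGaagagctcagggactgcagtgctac
These bases are at the start of the coding sequence, whereas the reads come from the other end of the transcript. Of the 50-base stretches in the last 500 bases of the transcripts, 26.3% of those of Ly6c1 and 34.8% of those of Ly6c2 were also found in another gene, mostly in each other. Counts of Ly6c1 and Ly6c2 are therefore uncertain where reads could be split between them. The share was 3.81% for Ly6a and 0 for Ly6e and Ly6d. Ly6a was 81.8% identical to Ly6c1 and 81.6% to Ly6c2 in its coding bases, and the other pairs were 49.3% to 52.2% identical.

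The promoters of Ly6c1 and Ly6c2 are shown because these near-identical genes were detected in different cells, as described further on. RefSeq promoters (GRCm38.p6, minus strand) were available for 2 of the 5 genes, with 2 start sites each. The motif GAGGAAGT, which the myeloid factor PU.1 is known to bind, is in capitals, and both strands were searched. The windows of each gene overlap, and both windows of Ly6c2 held the same 2 matches. Of the windows of Ly6c1, the one shown held a match. The other (chr15:75048788-75049087) ended within this site and so held none:
Ly6c1, chr15:75048614-75048913: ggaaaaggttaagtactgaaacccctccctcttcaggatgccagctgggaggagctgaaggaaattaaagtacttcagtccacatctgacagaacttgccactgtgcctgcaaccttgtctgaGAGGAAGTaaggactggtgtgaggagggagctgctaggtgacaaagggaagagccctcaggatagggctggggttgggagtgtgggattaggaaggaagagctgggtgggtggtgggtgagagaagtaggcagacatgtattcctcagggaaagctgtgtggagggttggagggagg
Ly6c2, chr15:75111922-75112221: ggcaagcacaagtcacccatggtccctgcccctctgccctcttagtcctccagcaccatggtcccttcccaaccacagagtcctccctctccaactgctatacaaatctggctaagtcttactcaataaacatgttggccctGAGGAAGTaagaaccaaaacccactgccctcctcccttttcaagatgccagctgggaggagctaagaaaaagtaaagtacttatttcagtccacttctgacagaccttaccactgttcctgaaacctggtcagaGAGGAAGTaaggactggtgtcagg
The motif stood in 3.20% of the 32851 promoters of this length in the table. An interferon-stimulated element (GAAA, then any 2 bases, then GAAA) stood in 3.44% of them and the NF-κB motif in 4.51%, and neither was in the promoter windows of Ly6c1 or Ly6c2.

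After filtering, 3458 WT cells (median 28065 UMIs) and 4417 KO cells (median 19560 UMIs) were kept, so that WT cells were 1.43 times deeper. A UMI (unique molecular identifier) marks a captured RNA molecule. Of the barcodes, 6 were shared between the filtered libraries. Nfkbia, the targeted gene, had 1478 UMIs in WT but 7 in KO. With 1 library per genotype there was no replicate and no test, and the intervals given (95%) show counting error and nothing of the spread between embryos or libraries. The KO library also held 17.4% male cells (Y-linked UMIs without Xist), against 0.116% of the WT library. Cells were placed in 13 gates by summed UMIs of marker genes, among which there was no Ly6 gene, and 70 of the 73 markers were higher in their own gate than elsewhere in both libraries. The exceptions were Gzmb (no UMI in the KO mast cell gate), Slc14a1 and Dntt. The largest gate was the erythroid gate (Klf1, Epor, Rhag and others), with 49.5% of WT and 53.1% of KO cells, followed by the stem cell gate (Hlf, Mecom, Fgd5, Procr, Mllt3), with 18.3% (634 cells) and 13.5% (598 cells). The stem cell gate had 2 Scrublet doublet calls, both in KO, and the erythroid gate had 105 and 185. Endothelial (66 and 91 cells) and hepatocyte (34 and 73 cells) gates were present in the sorted libraries as well.

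Ly6a RNA was highest in the endothelial and stem cell gates and lowest in the erythroid gate, the gate with most of the cells. In the stem cell gate it was 23.5 CPM (UMIs of a gene per 1000000 UMIs of its gate; 20.8 to 26.4, 282 UMIs) in WT and 28.8 CPM (25.2 to 32.7, 231 UMIs) in KO. In the erythroid gate WT had 1.05 CPM (0.818 to 1.34) and KO had 1.08 CPM (0.839 to 1.38). The stem cell gate was thus 22.3-fold (17.0 to 29.5) above the erythroid gate in WT and 26.5-fold (20.1 to 35.4) in KO.

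Vessel-lining cells carry SCA1 themselves, and the endothelial gate (Cdh5, Kdr, Stab2) had 34.4 CPM in WT (25.3 to 45.8) and 21.0 CPM in KO (14.7 to 29.0). It was 1.47-fold (1.05 to 2.00) above the stem cell gate in WT and 0.729-fold (0.498 to 1.04) of it in KO. Of its cells, 12 in WT and 17 in KO were doublet calls. Among progenitors, the Flt3 gate of lymphoid-primed cells had 11.01 CPM in WT and 13.7 CPM in KO, and the Il7r gate of lymphoid progenitors had 12.4 and 11.7 CPM. Cells in none of the gates had 14.1 and 14.4 CPM. These 3 groups did not differ from each other beyond their intervals in either library, and each was below the stem cell gate. The Flt3 gate and the ungated cells held no cell that passed the stem cell gate, since that gate came earlier in the order.

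Mature and myeloid blood cells held less Ly6a than the stem cell gate. In WT the macrophage (5.32 to 13.5) and maturing neutrophil (4.36 to 15.6) intervals overlapped those of the Flt3 and Il7r gates. In KO the maturing neutrophil interval lay below both. The macrophage gate had 8.71 CPM in WT and 6.22 CPM in KO, and the monocyte gate had 4.48 and 7.46 CPM. The early granule gate (Mpo, Elane, Prtn3) had 2.38 and 1.59 CPM. The maturing neutrophil gate had 8.73 CPM from 11 UMIs in WT and 1.65 CPM from 2 UMIs in KO (log2 KO/WT -2.40, -5.61 to -0.20). The Gata1/Gata2 gate of early erythroid and megakaryocytic progenitors, had 1.80 and 1.41 CPM, near the level of the hepatocyte gate (1.62 and 1.18 CPM, 3 UMIs in each library). In the order of the gates by Ly6a level, only 1 of 13 neighbouring pairs in WT (stem cell gate above ungated cells) and 0 of 13 in KO had intervals that did not overlap.

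**Figure D1:**
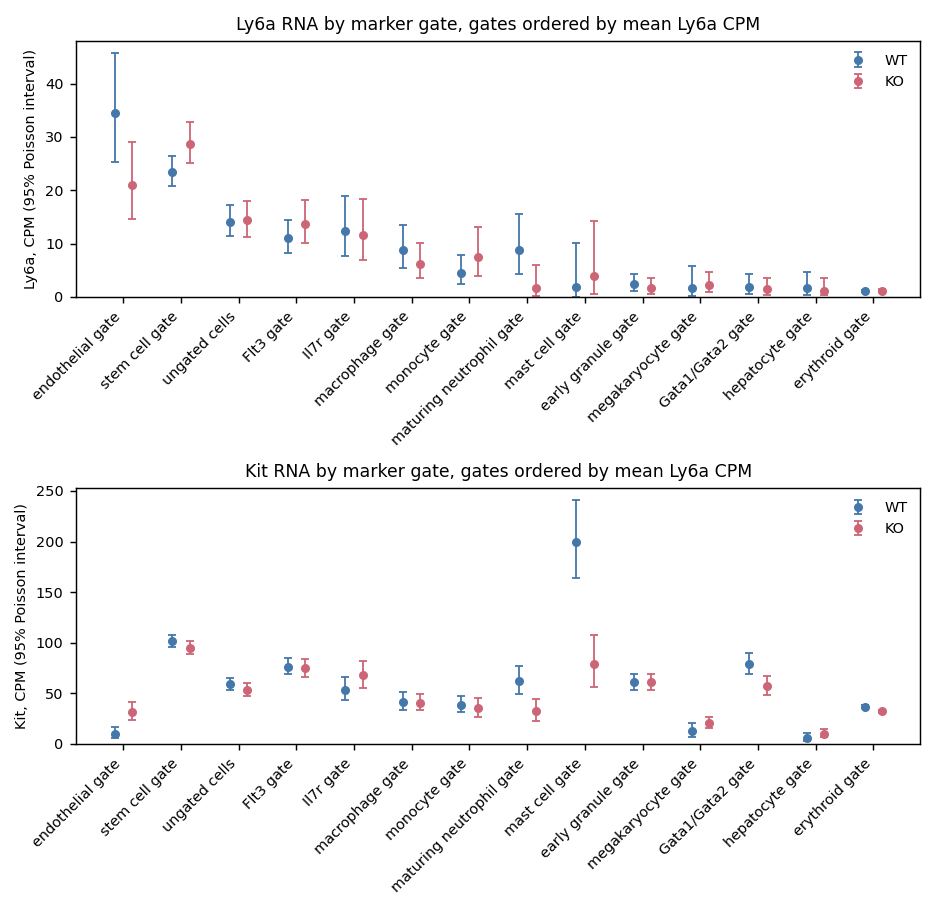
Ly6a (upper panel) and Kit (lower panel) in CPM for each gate and library, with exact Poisson 95% intervals; blue points are WT, red points are KO, and gates are ordered by the mean Ly6a level. Ly6a falls from 34.4 and 21.0 CPM in the endothelial gate to 1.05 and 1.08 CPM in the erythroid gate, whereas Kit is 36.8 and 32.2 CPM in the erythroid gate.

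Kit, the gene of the other antigen of the sort, was less concentrated. It was 101.6 CPM in WT and 95.1 CPM in KO in the stem cell gate and 36.8 and 32.2 CPM in the erythroid gate. It was lowest in the hepatocyte gate (5.95 and 10.2 CPM). The mast cell gate, whose cells depend on KIT, had the highest WT level with 200.03 CPM in 18 cells, against 78.9 CPM in 22 cells of KO.

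The cells had been sorted on SCA1 protein, yet few had a Ly6a UMI. Purity after the sort was not tested, per the study's methods. At full depth, 12.1% (11.05% to 13.3%) of cells in WT and 8.24% (7.45% to 9.09%) in KO had at least 1. To compare cells of unlike depth, each cell was thinned to 8500 UMIs, which left out 129 WT and 379 KO shallower cells. The thinned share was then 5.32% (4.58% to 6.13%) in WT and 4.31% (3.70% to 4.98%) in KO.

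In the stem cell gate the thinned Ly6a share was 16.1% (13.2% to 19.2%) in WT and 17.4% (14.1% to 21.1%) in KO, and the full-depth share was 29.5% and 25.3%. In the erythroid gate, whose maturing cells should lack the gene, the thinned share was 0.713% (0.369% to 1.24%) and 0.440% (0.211% to 0.807%), and the full-depth share was 2.69% and 1.88%. The median depth was 17305 and 12413 UMIs in the stem cell gate and 35490 and 23535 UMIs in the erythroid gate, so the gate with the higher share was the shallower. At the same depth, the intervals of the stem cell and erythroid shares were far apart in both libraries. The hepatocyte gate had 0 of 32 thinned WT cells and 1 of 67 thinned KO cells with Ly6a, and the Gata1/Gata2 gate 0 of 106 and 1 of 137.

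Ly6a-positive cells gathered in the stem cell gate, though the gate did not hold all of them. It held 18.1% of thinned WT cells and 54.8% of the Ly6a-positive ones, and in KO it held 47.1% of the positive ones. By contrast, the erythroid gate held 50.6% of thinned WT cells and 6.78% of the Ly6a-positive ones, and in KO 56.3% and 5.75%. The rest were in ungated cells, the Flt3 gate and, in smaller numbers, the other gates.

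Counting both antigens of the sort at the RNA level, 2.61% (2.10% to 3.21%) of the thinned cells in WT and 1.93% (1.53% to 2.40%) in KO had UMIs of Ly6a and Kit together. The product of the single shares was 1.62% and 1.11%. Neither gene was seen in 66.7% of WT and 71.8% of KO cells. Kit alone was seen in 27.9% and 23.9%, and Ly6a alone in 2.70% and 2.38%. The stem cell gate held 66.7% of the double-positive cells in WT and 57.7% in KO. Within the stem cell gate the double-positive share was 9.60% in WT, against 9.04% for the product of the shares there, and in KO it was 9.55% against 8.72%.

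**Figure D2:**
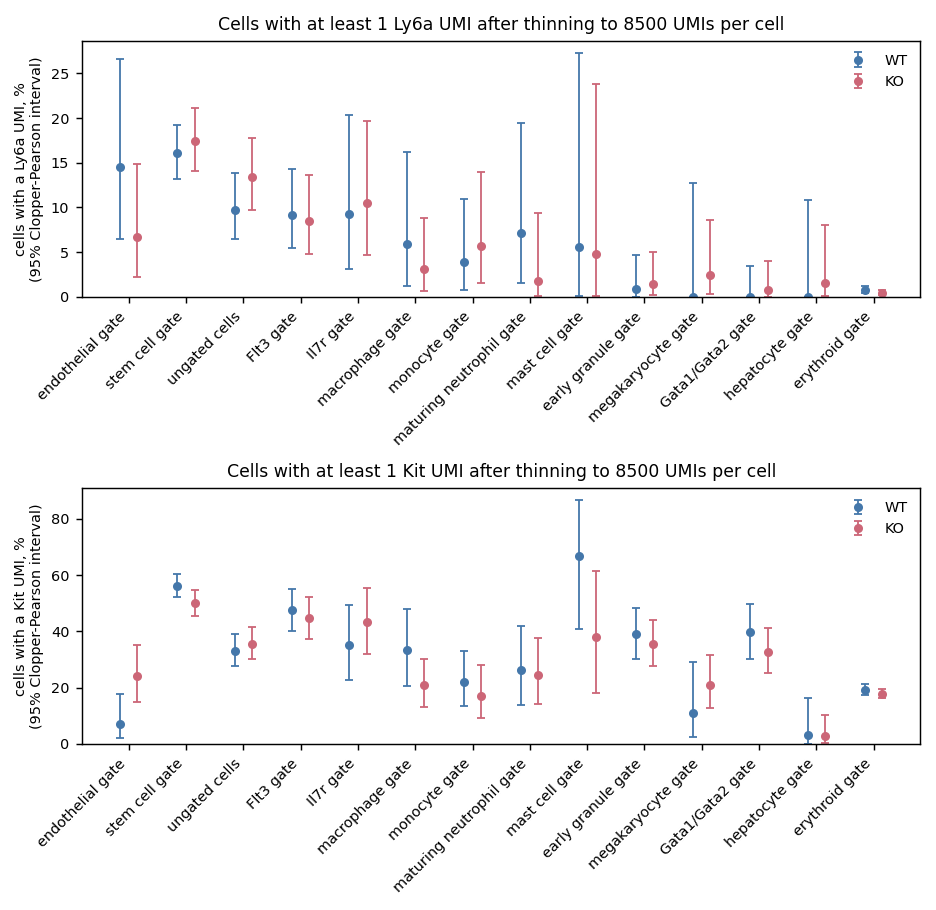
Share of cells with at least 1 Ly6a UMI (upper panel) or Kit UMI (lower panel) after thinning to 8500 UMIs per cell, by gate, with exact Clopper-Pearson 95% intervals; blue points are WT, red points are KO. The Ly6a share is 16.1% and 17.4% in the stem cell gate and below 1% in the erythroid gate, where the Kit share is 19.3% and 17.8%.

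A low capture rate by itself gives cells without a UMI. If uniform, the full-depth mean rate of the stem cell gate would give 18.1% of WT and 21.7% of KO cells a Ly6a UMI at 8500 UMIs. The counted shares were 16.1% and 17.4%, in the 604 WT and 471 KO cells left after thinning. The Poisson shares that follow use the mean of these thinned cells instead. The share of cells with 0 Ly6a UMIs was 83.9% in WT against a Poisson share of 81.0% for the same mean, an excess of 2.90 percentage points. Of 5975 genes with at least 200 UMIs in the gate, 89.8% had a smaller excess. In KO the zero share was 82.6% against 76.0%, an excess of 6.55 points, above 97.6% of 4741 genes. Among the 1274 KO genes with a mean that near, the median excess was 0.393 points and 3 had a larger one. Without the KO cell with most Ly6a UMIs the KO excess was 2.10 points. The excess of Kit was 2.94 points in WT and 5.74 points in KO. At this depth a uniform rate would by itself leave most cells without a Ly6a UMI. SCA1 protein, which was selected for, was not measured in these data.

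Within the stem cell gate, Ly6a was not evenly spread. It was higher in cells with more stem cell marker UMIs. In WT it was 12.7 CPM (9.04 to 17.2) in cells with 1 to 2 marker UMIs per 10000 UMIs, 21.7 CPM (17.5 to 26.6) with 2 to 4, and 32.5 CPM (27.5 to 38.2) with 4 or more. The KO values were 7.34 CPM (4.01 to 12.3), 21.6 CPM (16.8 to 27.3) and 50.6 CPM (42.7 to 59.4), the last being 39.4 CPM without its top cell. The thinned share of positive cells moved the same way, from 8.33% to 13.7% and 21.1% in WT and from 6.86% to 15.1% and 26.0% in KO. Ly6e did not follow the markers, with 176.6, 160.5 and 160.8 CPM in WT and 163.6, 167.7 and 173.2 CPM in KO.

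Procr encodes EPCR, a surface marker of the most primitive fetal stem cells and also 1 of the 5 gate markers. Cells with a Procr UMI had 35.0 CPM of Ly6a (29.1 to 41.7) in WT, against 18.7 CPM (15.9 to 21.8) in cells without. In KO the values were 57.7 CPM (47.1 to 70.1; 39.3 without the top cell) and 20.6 CPM (17.2 to 24.5). The thinned shares were 24.6% against 11.6% in WT and 26.9% against 14.7% in KO. Cells without a UMI of Mki67, a proliferation marker, likewise had more Ly6a (36.4 CPM in WT and 43.7 CPM in KO) than cells with Mki67 (19.3 and 23.6 CPM). Ly6a hardly differed between cells with Kit UMIs (23.0 CPM in WT, 28.2 in KO) and without (25.5 and 29.9 CPM).

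Depth moved along with these differences. Cells under 10000 UMIs had 41.3 CPM of Ly6a in WT and 51.2 CPM in KO, those of 10000 to 20000 UMIs had 32.2 and 29.2 CPM, and those of 20000 to 40000 had 14.8 and 10.4 CPM. The few cells of 40000 UMIs or more (18 in WT, 4 in KO) had 15.9 and 4.72 CPM. The median depth was 14766 UMIs in Procr-positive and 18814 UMIs in Procr-negative WT cells, and 12354 and 20306 UMIs in Mki67-negative and Mki67-positive WT cells. Over the 3 marker groups it fell from 24887 to 19146 and 13973 UMIs in WT and from 16568 to 13667 and 9582 UMIs in KO. Since the gate asks for 2 markers, a cell under 10000 UMIs cannot be in the group with 1 to 2 marker UMIs per 10000. Cells with few UMIs in total were thus the ones with a higher Ly6a CPM. The thinned shares, which are taken at 1 depth, kept the direction in both libraries for Procr, Mki67 (22.2% against 12.97% in WT, 27.7% against 14.2% in KO) and the marker strength. Thinning evens out the UMIs counted per cell but not the depth range a cell came from. The part of depth in the differences of CPM and of shares was not tested further.

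**Figure D3:**
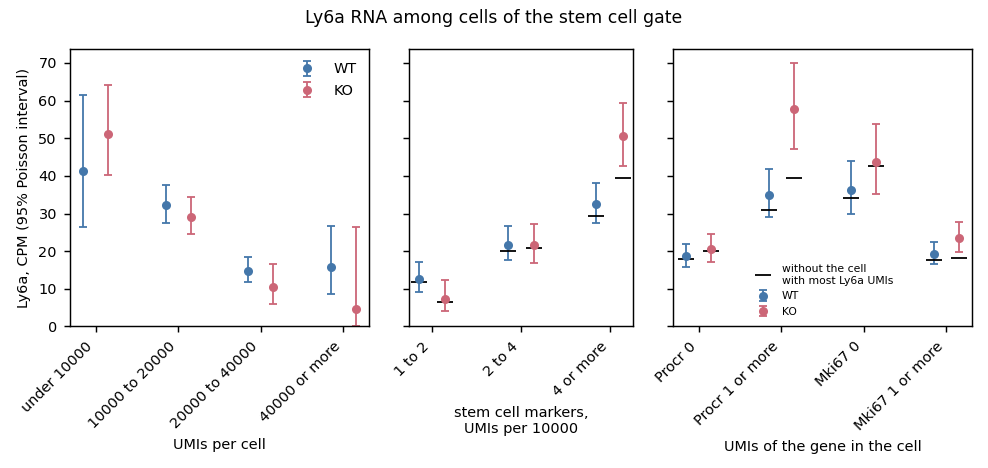
Ly6a in CPM (exact Poisson 95% intervals) among stem cell gate cells split by total UMIs, by summed stem cell markers per 10000 UMIs, and by UMIs of Procr or Mki67; blue points are WT, red points are KO, and black bars give the value without the cell with most Ly6a UMIs. Ly6a goes down over the first 3 ranges of total UMIs (the fourth holds 18 and 4 cells) and up with marker strength in both libraries, from 12.7 to 32.5 CPM in WT and from 7.34 to 50.6 CPM in KO over the marker groups.

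Few single cells carried many Ly6a UMIs. In the WT stem cell gate 447 of 634 cells had 0, 127 had 1, 43 had 2, 15 had 3 to 5 and 2 had 6 or more, with 15 UMIs in the highest cell and 7 in the next. In the KO gate 447 of 598 cells had 0, 112 had 1, 28 had 2, 10 had 3 to 5, and a single cell had 33 UMIs, 14.3% of all Ly6a UMIs of the gate. No other KO cell of the gate had more than 3.

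These 2 cells were looked at after their values had been seen. The KO cell, a male cell of 11000 UMIs with Hlf, Mecom and Procr UMIs, had UMIs of 18 of the 21 listed interferon response genes, among them 83 of Ifitm3, 34 of Bst2, 12 of Ifit1 and 11 of Isg15. The list made up 213.6 UMIs per 10000 of this cell, the highest of the gate, whose median was 7.02. It also had 28 Ly6e UMIs, the most of any cell in its gate. The WT cell had 6 of the 21 genes, 78 UMIs of Ifitm3 and 13 of Bst2, and 38.4 list UMIs per 10000 (gate median 6.53), with 6 Ly6e UMIs.

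Other cells with many interferon response genes often had Ly6a, but in low numbers. Of the cells with at least 12 of the 21 genes, 8 of 11 in WT and, apart from this KO cell, 5 of 8 in KO had a Ly6a UMI, and they held no more than 3. Over the whole stem cell gate, cells of the lowest, middle and highest tertile of the summed interferon list had 12.2, 24.1 and 40.6 CPM of Ly6a in WT and 11.1, 33.7 and 51.3 CPM in KO. The values of the highest tertile without the top cell were 36.0 CPM in WT and 35.9 CPM in KO. The thinned shares of Ly6a-positive cells were 8.29%, 16.9% and 23.4% in WT and 9.78%, 22.9% and 21.5% in KO. Depth also fell over the tertiles, from a median of 21772 to 13655 UMIs in WT. The list was summed as UMIs, so that genes with many UMIs, such as Ifitm3 and Bst2 (levels given further on), weighed most in it. Whether Ly6a followed the rest of the list was not tested. Ly6e, known to respond to interferon as well, was 163.5, 163.7 and 168.3 CPM over the WT tertiles and 167.9, 175.4 and 162.3 CPM in KO.

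Between the genotypes, Ly6a was 5.84 CPM in WT and 5.32 CPM in KO over all cells, a log2 KO/WT of -0.14 (-0.31 to 0.03). A ratio was called only where a gene had at least 50 UMIs in a gate over both libraries and passed 1.5-fold. In the stem cell gate the log2 KO/WT of Ly6a was 0.29 (0.04 to 0.55), which is under the fold, and 3.46% of the genes of that gate were past it. Without the top cell of each library it was 0.15 (-0.12 to 0.42), and among female cells of both libraries it was 0.07 (-0.22 to 0.36). Split by depth, it was 0.31 (-0.37 to 1.04) in cells under 10000 UMIs, -0.14 (-0.48 to 0.20) within 10000 to 20000 and -0.51 (-1.35 to 0.26) within 20000 to 40000. The sign thus changed with the depth of the cells compared. Without the top cells the ratio stayed above 0, but its interval came to include 0.

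Outside the stem cell gate, Ly6a passed the fold only in the endothelial gate among the 5 gates with enough UMIs. There it was 47 UMIs in WT and 36 in KO, a log2 KO/WT of -0.71 (-1.38 to -0.06), and 8.16% of genes passed the fold in that gate. The KO cell with most Ly6a UMIs of this gate (11) was a doublet call, and without the top cell of each library the log2 KO/WT was -0.79 (-1.59 to -0.0047). Kit moved the other way in the same gate, from 10.3 CPM in WT to 32.0 CPM in KO. The Flt3 gate (log2 0.31, -0.28 to 0.90; 3.57% of genes past the fold) and ungated cells (0.03, -0.42 to 0.48; 4.81%) did not pass. Within cells of 10000 to 20000 UMIs these values were -0.74 and -0.45.

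In the erythroid gate WT had 68 Ly6a UMIs and KO had 66 (log2 0.04, -0.47 to 0.55), where 3.6% of genes passed the fold. These few UMIs were not evenly placed. In KO, 38 of the 66 were in 180 barcodes that held Y-linked UMIs together with Xist, and 74 of these barcodes were doublet calls. Ly6a was 5.17 CPM in these barcodes, 0.603 CPM in KO erythroid cells with Xist alone and 0.352 CPM in those with Y-linked UMIs alone. Without such barcodes the log2 KO/WT was -1.01 (-1.70 to -0.36), and among female cells it was -0.81 (-1.55 to -0.12). The WT library, with few male cells, could hardly show this mark. Its erythroid gate held 2 such barcodes with 0 Ly6a UMIs, and 67 of its 68 Ly6a UMIs were in female cells. Both restrictions thus took Ly6a UMIs almost only from KO, and the 2 ratios cannot be read as a difference between the genotypes. Of the erythroid gate cells, 61 in WT and 114 in KO also passed the stem cell gate, and they held 23 and 30 of the Ly6a UMIs. Ly6a in the erythroid gate was therefore partly in barcodes that carried markers of more than 1 cell or cell type. Cells that passed both gates were counted in the erythroid gate alone, since each cell was given to the first gate it passed.

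**Figure D4:**
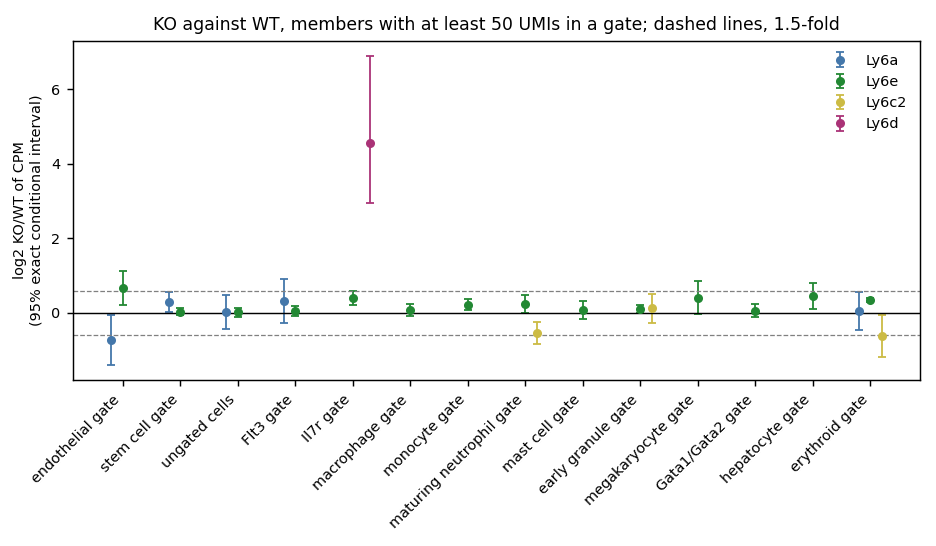
Log2 KO/WT of CPM with exact conditional 95% intervals for each Ly6 gene and gate with at least 50 UMIs over both libraries; blue is Ly6a, green is Ly6e, yellow is Ly6c2, magenta is Ly6d, and dashed lines mark 1.5-fold. All 14 Ly6e points are above 0 (that of the ungated cells is below 0 under median-of-ratios scaling) and only that of the endothelial gate (0.66) is past the fold, whereas the Ly6d point of the Il7r gate is at 4.57.

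Ly6e was detected in every gate and, unlike Ly6a, was among its lowest levels in endothelial cells. Its highest levels were in the mast cell gate (493 CPM in WT, 521 CPM in KO) and the monocyte gate (385 and 450 CPM). The early granule (313 and 335 CPM), macrophage (280 and 297 CPM), Il7r (264 and 348 CPM) and maturing neutrophil (225 and 266 CPM) gates followed. The Flt3 (211 and 219 CPM), Gata1/Gata2 (195 and 203 CPM) and ungated (192 and 194 CPM) cells were close to each other.

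The stem cell gate came after these, with 165 CPM of Ly6e in WT (158 to 172) and 169 CPM in KO (160 to 178), above the erythroid gate with 82.4 CPM (80.2 to 84.6) and 105.7 CPM (103.1 to 108.3). The hepatocyte (55.2 and 75.5 CPM), megakaryocyte (46.2 and 61.6 CPM) and endothelial (46.1 and 72.8 CPM) gates were lowest, and their intervals overlapped within each library. In each library 5 of 13 neighbouring pairs in the order were separated by their intervals. The thinned share of Ly6e-positive cells was 71.9% in WT and 70.7% in KO in the stem cell gate and 37.9% and 45.3% in the erythroid gate. The lowest Ly6e shares were those of the endothelial gate (12.7% and 24.0%) and the hepatocyte gate (18.8% and 28.4%). No gate lacked Ly6e, so the share that free RNA alone would give was not measured. A Ly6e UMI was thus counted in most stem cell gate cells, and a Ly6a UMI in a minority of them at the same depth.

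Ly6e was higher in KO than in WT in all 14 groups of cells, the 13 gates and the ungated cells, with a log2 KO/WT from 0.01 in ungated cells, which went to -0.05 under median-of-ratios scaling, to 0.66 in the endothelial gate. The groups share the same 2 libraries, so that they are not independent. The interval was above 0 in 6 of the 14, and the fold was passed only in the endothelial gate (63 and 125 UMIs; 0.66, 0.21 to 1.12). In the gates not yet given, 7.09% (hepatocyte), 9.53% (macrophage), 9.47% (megakaryocyte), 9.78% (mast cell) and 4.76% (Gata1/Gata2) of all genes passed the fold. Over all cells Ly6e was 133 CPM in WT and 147 CPM in KO (0.14, 0.11 to 0.17). In the stem cell gate it was 0.03 (-0.07 to 0.13). In the hepatocyte gate it was 0.45 (0.10 to 0.81), and -0.34 (-0.81 to 0.13) without doublet calls.

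The erythroid gate had the narrowest interval for Ly6e, with a log2 KO/WT of 0.36 (0.31 to 0.41) from 5316 and 6430 UMIs. It was 0.27, 0.92, 0.54 and 0.50 from the shallowest to the deepest of 4 ranges of total UMIs. It was 0.32 in cells with Kit UMIs and 0.58 in cells without. Among female cells it was 0.22 (0.16 to 0.28), and in the KO library male erythroid cells had 115 CPM of Ly6e and female ones 95.5 CPM. The sign was thus kept in each of these subsets, but in the 47 WT and 61 KO cells without Mki67 UMIs it was -0.54 (-0.93 to -0.16). The part of the embryo or sex in this difference was not tested beyond these values.

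**Figure D5:**
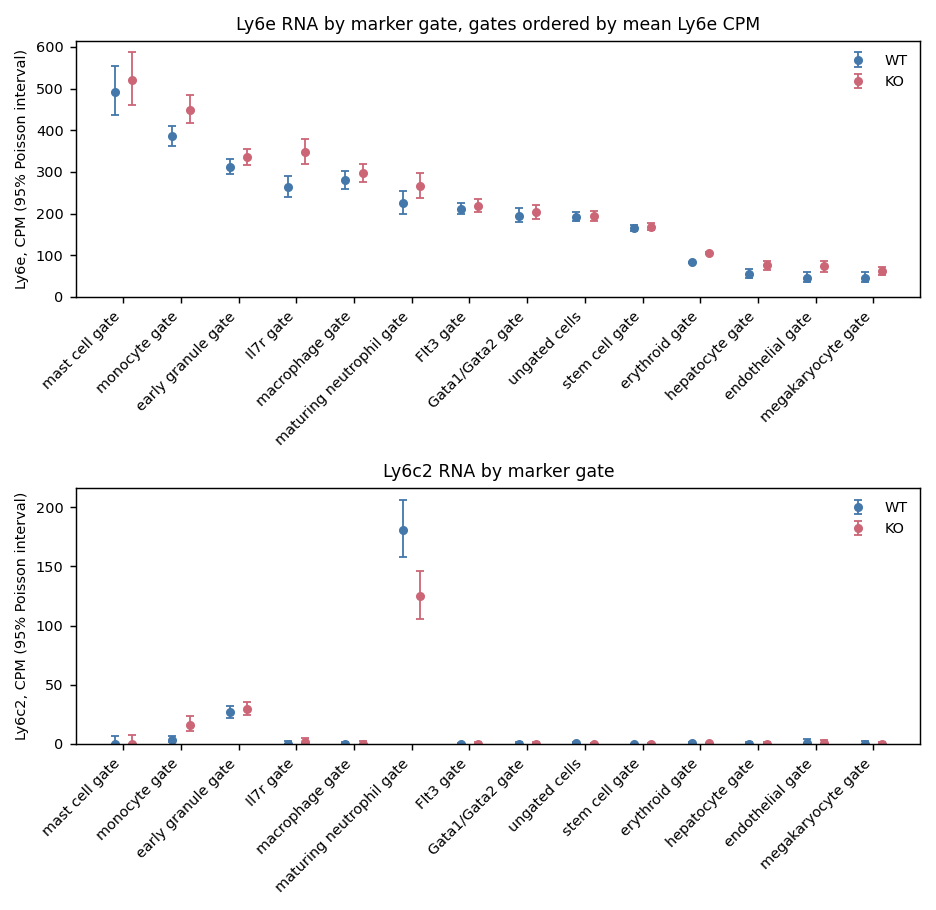
Ly6e (upper panel) and Ly6c2 (lower panel) in CPM for each gate and library with exact Poisson 95% intervals; blue points are WT, red points are KO, and gates are ordered by the mean Ly6e level. Ly6e is present in every gate, from 493 and 521 CPM in the mast cell gate down to 46.1 CPM in the WT endothelial gate, whereas Ly6c2 stands out in the maturing neutrophil gate (180.9 and 124.9 CPM).

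Ly6c2 was highest in the neutrophil gates. In the maturing neutrophil gate (S100a8, S100a9, Ngp) it was 180.9 CPM (158.2 to 206.0; 228 UMIs in 39 of 46 cells) in WT and 124.9 CPM (105.8 to 146.5; 151 UMIs in 36 of 58 cells) in KO. The early granule gate had 26.8 CPM (113 UMIs) and 29.3 CPM (111 UMIs), and the monocyte gate had 3.36 CPM (9 UMIs) and 16.2 CPM (26 UMIs). These 3 gates were separated from each other in both libraries. The low monocyte level rests partly on the order of the gates, since cells that passed a neutrophil gate first were counted there. Of the cells that passed the monocyte gate, 44 in WT and 40 in KO were in a neutrophil gate, and they held 98 and 111 Ly6c2 UMIs (61.2 and 93.2 CPM). Over all cells that passed the monocyte gate, the 182 WT cells had 16.9 CPM (14.1 to 20.1) of Ly6c2, whereas the 223 KO cells had 24.7 CPM (20.9 to 29.02). No Ly6c2 UMI was found in the stem cell gate, in 0 of 634 WT cells, which allows a share of cells with a UMI of up to 0.473%, and 0 of 598 KO cells, which allows up to 0.502%. A floor of 3 UMIs in the gate is 0.250 CPM in WT and 0.374 CPM in KO. GR1 is among the antigens that lineage depletion usually targets, and cells with a Ly6c2 UMI were 2.83% of WT and 2.20% of KO cells.

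The log2 KO/WT of Ly6c2 was -0.54 (-0.84 to -0.23) in the maturing neutrophil gate, under the fold, which 7.36% of genes passed there. Among female cells of both libraries it was -0.08 (-0.45 to 0.28), and in the KO library male cells of this gate had 78.2 CPM and female ones 154.6 CPM. In the early granule gate it was 0.13 (-0.26 to 0.52; 3.8% of genes past the fold), and -0.53 (-0.89 to -0.17) with gate thresholds raised to 2 times their value. Here too KO male cells (11.7 CPM) were below KO female cells (34.1 CPM). Sex and embryo cannot be told apart within the KO pool. The monocyte gate had fewer than 50 Ly6c2 UMIs, and its ratio (log2 2.27, 1.13 to 3.54) was not called.

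In the erythroid gate Ly6c2 passed the fold, with 73 UMIs in WT against 45 in KO (-0.61, -1.18 to -0.06). Of these, 59 UMIs in WT and 39 in KO were in the 18 and 28 cells that also passed a neutrophil gate. The remaining 1693 WT and 2316 KO cells held 14 and 6 UMIs, or 0.222 and 0.101 CPM. With every gate threshold raised to 2 times its value the log2 KO/WT was 0.36 (-0.37 to 1.09), and without doublet calls it was -1.35 (-2.17 to -0.59). Ly6c2 in the erythroid gate was therefore mostly in barcodes that carried granule genes too.

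Ly6c1, although 97.7% identical to Ly6c2 in coding bases, was seen in other gates. It had 15 UMIs in WT and 21 in KO in all. Of these, 8 and 9 were in the endothelial gate and 3 and 10 in the stem cell gate (log2 2.32, 0.36 to 4.82), where no cell had more than 1. The neutrophil gates, which held most Ly6c2 UMIs, held no Ly6c1 UMI in WT and 2 in KO. The 2 genes were not counted in 1 ratio across gates, although reads from their shared 3′ stretches may still be uncertain.

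Ly6d UMIs were mostly those of a few cells of the KO library. The WT library had 4 Ly6d UMIs in 3 cells and the KO library 139 UMIs in 18 cells (log2 5.25, 3.86 to 7.14). It was the only one of the 4 Ly6 genes with at least 50 UMIs that passed the fold over all cells, where 5.42% of genes passed it. Of the KO UMIs, 110 were in 3 cells with 45, 41 and 24 UMIs. Of the 18 KO cells, 17 had UMIs of Il7r, the interleukin 7 receptor of early lymphoid cells, and 15 were female.

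By gate, Ly6d was 3 UMIs in WT and 65 in KO in the Il7r gate, a log2 KO/WT of 4.57 (2.96 to 6.88), where 5.96% of genes passed the fold. In the monocyte and dendritic gate it was 0 UMIs in 77 WT cells and 71 UMIs in 4 of 71 KO cells, at least 39.4-fold higher against a floor of 3 UMIs in WT, and 7.66% of genes passed the fold there. Without the 3 cells the Il7r gate ratio was 3.15 (1.43 to 5.52) on the log2 scale, and 2 UMIs were left in the monocyte gate. The share of Il7r gate cells with Ly6d was 14.1% (11 cells) in KO and 3.70% (2 cells) in WT.

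The 3 cells, picked out after their values had been seen, were all female, had no Kit UMI and were not doublet calls. The cell with 45 Ly6d UMIs also had 14 of Irf8 and 6 of Siglech, which mark plasmacytoid dendritic cells, and 2 of Ccr9. That with 41 had 7 of Ccr9, a homing receptor of early thymic cells and plasmacytoid dendritic cells, and 5 of Cd7, and it had none of Siglech. The cell with 24 had 19 of Irf8, 4 of Il7r and 2 of Siglech. They held 0, 0 and 3 Ly6a UMIs but 15, 16 and 13 Ly6e UMIs.

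Over genes and gates, 23 KO/WT ratios of Ly6 genes rested on at least 50 UMIs, apart from the bound of Ly6d in the monocyte gate, and 4 were past the fold. They were Ly6a and Ly6e in the endothelial gate, in opposite directions, Ly6c2 in the erythroid gate and Ly6d in the Il7r gate. The share of all genes past the fold ran from 3.46% in the stem cell gate to 9.78% in the mast cell gate.

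Male and female cells of the KO library come from different embryos of the pool. In the stem cell gate Ly6a was 52.1 CPM in 76 male cells and 24.8 CPM in 466 female cells (log2 male/female 1.07, 0.60 to 1.52), in a comparison in which 10.2% of genes passed the fold. Without the male cell with 33 Ly6a UMIs it was 21.6 CPM in males, a log2 ratio of -0.20 (-0.90 to 0.44). Ly6e in the stem cell gate was 146 CPM in male and 175.5 CPM in female cells (log2 male/female -0.27, -0.52 to -0.02). Without the same male cell it was 121.2 CPM in males, a log2 ratio of -0.53 (-0.81 to -0.27). Over all cells (8.81% of genes past the fold) the log2 male/female was -0.20 for Ly6a, 0.01 for Ly6e and -0.18 for Ly6c2. Ly6d had 6 UMIs in male and 132 in female cells. Apart from 1 cell, the log2 male/female of Ly6a in the stem cell gate thus had an interval that included 0 (-0.90 to 0.44).

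Across 13 groups of cells and both libraries (26 points of log2(CPM + 1), which share 2 libraries; the mast cell gate was left out for its few UMIs), the genes whose levels were most like those of Ly6a were Calcrl (r = 0.900), a receptor of blood and vessel cells, Gimap6 (0.884), Hoxa5 (0.883), Cox7a2l (0.877) and Grrp1 (0.877). Those most like Ly6e were Dock10 (0.939), Tnfaip8l2 (0.912) and Cd52 (0.911), and those most like Ly6c2 were Trem3 (0.937), Mcemp1 (0.923) and Olr1 (0.919). Ly6c1 and Ly6d had too few UMIs for this. Between members, r was 0.12 for Ly6a and Ly6e, -0.19 for Ly6a and Ly6c2, and 0.42 for Ly6e and Ly6c2. These were below the values of the genes named above. Ly6a was less like Kit (0.35) than Ly6e was (0.71). These correlations are descriptions over groups of cells and have no test.

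Of 32 other genes of the Ly6/uPAR family, 5 had no UMI in either library and 10 had at least 50 UMIs over all cells. Of these 10, 1 was past the fold upward (Ly6g6f) and 0 downward, against 5.42% of all genes over all cells. Ly6g6f had 93 and 177 UMIs (log2 1.06), with 33 and 115 of them in the 28 and 113 cells of the megakaryocyte gate. The median log2 KO/WT of the 10 was 0.11 against 0.01 for all genes tested. The most abundant was Cd59a, an inhibitor of complement, with 19.0 CPM in WT and 21.0 CPM in KO. Gpihbp1, which holds lipoprotein lipase on the vessel wall, had 112 of its 126 WT UMIs and 143 of its 155 KO UMIs in the endothelial gate. Plaur, the urokinase receptor, had 2.83 and 2.71 CPM.

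Among the interferon response genes, 21 of 22 were in the count tables and 20 had at least 50 UMIs over all cells. Of these 20, 1 was past the fold upward (Ifit1, 50 and 136 UMIs, log2 1.57) and 0 downward, against 5.42% of all genes. Single cells held 21 of these UMIs in WT and 54 in KO, the latter in the Flt3 gate, and without both the log2 KO/WT was 1.63 (1.00 to 2.29). The median log2 KO/WT of the list was 0.01, the same as for all genes. In the stem cell gate 0 of 17 were past the fold upward and 1 downward (Oas1a, 54 and 22 UMIs, -0.71, -1.50 to 0.03), with a median of 0.04. Of all genes of that gate, 3.46% passed the fold. Bst2 there was 94.9 CPM in WT and 110.2 CPM in KO, and Ifitm3 427 and 457 CPM.

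Among 10 genes of antigens that lineage depletion usually targets, 5 had at least 50 UMIs, of which Klrb1c passed the fold (44 and 22 UMIs, -0.87). Over all cells, 5.42% of all genes passed it. Ly6g, the other gene of the GR1 antigen, had 0 UMIs in both libraries. Cd3e had 0 and 1 UMIs. Itgam (CD11b), which was left out of the depletion mix for fetal liver, had 275 and 239 UMIs.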

How the data were processed

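Fetal liver LSK cells (E14.5) had been profiled in 1 single-cell RNA sequencing library per genotype. Per the labels and the file headers, the authors aligned the reads of each library to GRCm38 (mm10) with Cell Ranger 6.0.0 and deposited tables of raw UMI counts, with 3840 WT and 4928 KO barcodes. The annotation release is not given in the sources used here. No cell type annotation was used.

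Cells needed at least 1000 genes and no more than 20% mitochondrial UMIs. The total was 108325741 UMIs in WT and 99069309 in KO. Each cell was given to the first of 13 ordered gates (hepatocyte, endothelial, macrophage, megakaryocyte, erythroid, maturing neutrophil, early granule, monocyte and dendritic, Il7r, mast cell, stem cell, Gata1/Gata2, Flt3) whose markers it passed, by a minimum number of markers detected and of summed marker UMIs per 10000. For the stem cell gate these were 2 of 5 markers and 1 UMI per 10000, and for the erythroid gate 3 of 6 markers and 2 UMIs per 10000. Of the stem cell gate, 30 WT and 18 KO cells lay within 1.25-fold of the threshold. Scrublet (in scanpy 1.11.5, with an expected rate of 5%) called doublets, which were kept. The calls were 3.56% of WT and 5.39% of KO cells.

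UMIs were summed per gate and library and given as CPM with exact Poisson intervals, ratios with exact conditional (Clopper-Pearson) intervals, and shares of cells with exact Clopper-Pearson intervals. These intervals cover counting error only. Genes with at least 50 UMIs in a gate over both libraries were called past 1.5-fold. Against a count of 0, 3 UMIs served as the floor. Cells were thinned without replacement. Sequences came from GENCODE vM21 and RefSeq, and alignments were made with Biopython 1.88. Intervals of ratios were tested on data simulated with independent Poisson counts, the model they assume. That test does not cover UMIs that gather in a few cells.

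The 5 genes, the gene lists and the comparisons were chosen with earlier results of these data known, and the gate thresholds were set from marker totals with no Ly6 gene counted. The text names the 5 genes, Nfkbia, Kit, the genes most alike to a member (5 for Ly6a, 3 for the others with at least 200 UMIs) and, from each list, genes past the fold or of high CPM. Alternatives covered scaling, doublet removal, female cells, cell filters, stricter gates, per-cell means, thinning and gene minimum. Leaving out top cells, barcodes with Y-linked UMIs and Xist, cells also passing a neutrophil gate, and cells outside 10000 to 20000 UMIs, and counting every cell that passed the monocyte gate, were alternatives chosen after seeing the data.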

Additional observations from a re-analysis of the deposited data

How the results depend on the processing

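No paired analysis was possible because there was only 1 library of each genotype. Of 270 alternative values for 38 results, 215 stayed within the interval of the value as reported, 53 moved and 2 values that had passed the fold, or compared male with female cells, turned direction. Of the 205 alternative KO/WT ratios by gate, called or not, 20 had another sign than the ratio as reported, in 12 of 23 ratios. The log2 KO/WT of Ly6a in the stem cell gate went to -0.14 in cells of 10000 to 20000 UMIs. That of Ly6e in the erythroid gate went to 0.22 in female cells, 0.27 without barcodes holding Y-linked UMIs and Xist, and 0.92 in cells of 10000 to 20000 UMIs. Ly6e was above 0 in 14 of 14 groups as reported, in 13 without doublet calls, in female cells, under median-of-ratios scaling or without the top cells, in 12 with stricter gates, and in 10 of 13 in cells of 10000 to 20000 UMIs. Ly6c2 in the erythroid gate reversed to 0.36 with stricter gates, and Ly6a between male and female KO stem cell gate cells reversed to -0.20 without 1 cell. Between 3 and 6 ratios were past the fold.

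The shares of positive stem cell gate cells depend on depth by construction. For Ly6a the share was 5.21% in WT and 7.19% in KO at 2000 UMIs, 29.5% and 25.3% without thinning, and 3.31% and 4.03% when 2 UMIs were required. For Kit it was 18.5% and 18.4%, 78.2% and 61.4%, and 21.9% and 21.2%. The excess of KO cells without Ly6a was 0.213 percentage points at 2000 UMIs and 2.10 points without the top cell. With a minimum of 1000 UMIs the gene most like Ly6c2 was Alas1 (r = 0.913), since fewer genes were compared. The causes of the other changes were not tested.

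Ly6c1 (36 UMIs in all) is too thin for a called ratio by gate, and those of Ly6d rest on 4 WT UMIs. In the mast cell gate, the smallest, a floor of 3 UMIs was 5.46 CPM (WT) or 5.92 CPM (KO). Without replicates, differences between embryos, sexes, libraries and genotypes cannot be told apart.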
